A study of Mus musculus with 64 samples.

Results

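A set of 10 genes that mark hepatic stellate cells and other mural cells were followed in mouse liver: Lrat, Reln, Gdf10 and Pdgfra as markers of quiescence, Acta2, Tagln and Vim as markers of activation, and Pdgfrb, Des and Rgs5 as general mural and stellate markers. They were taken by symbol from a table of unique molecular identifier (UMI) counts, in which each captured RNA molecule is counted once by its 3′ end, and 10 of 10 were found among 55487 genes. Of those genes, 23436 had at least 1 UMI and 10097 passed the filter on low counts, all 10 identity genes included. The livers came from male C57BL/6J mice fed ad libitum that had received an AAV8 vector with a short hairpin RNA 4 weeks earlier. The hairpin was either sh-Acsf3, against the mitochondrial acyl-CoA synthetase gene Acsf3, or the control hairpin sh-Ctl, so that the controls also carry AAV8. Each of the 16 groups (2 hairpins at 8 zeitgeber times, ZT0 to ZT21 every 3 h) held 4 libraries, 64 in all. The labels do not name the promoter that drives the hairpin or the cells it reaches, and whole liver was sampled, so stellate and mural cells give a small share of the RNA.

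Hepatic stellate cells are the pericytes of the liver sinusoid, lying between the endothelium and the hepatocytes. In the quiescent state they store vitamin A as retinyl esters, and after injury they can turn into contractile, collagen-producing myofibroblasts that express smooth muscle genes. Vascular smooth muscle cells, venous pericytes and portal fibroblasts share several of these genes, so none of the 10 marks a single cell type in a whole-liver sample.

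Library totals ran from 1.48 M to 6.06 M UMIs in sh-Ctl (median 3.13 M) and from 0.839 M to 9.35 M in sh-Acsf3 (median 2.03 M). Acsf3 itself stood at 11.3 ± 2.61 counts per 1 M UMIs (CPM; SD, n = 32) in sh-Ctl and at 2.56 ± 1.72 CPM in sh-Acsf3. In all, 8 libraries (2 sh-Ctl, 6 sh-Acsf3) held RNA of exocrine pancreas genes above 100 CPM in sum, 4 libraries (all sh-Ctl) were above 1000 CPM in the acute-phase gene Saa1, and 2 libraries had under 1 M UMIs. Calls on an identity gene that were gained or lost without these libraries are given beside the result.

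Of the 10 identity genes, 7 rose in sh-Acsf3 and 0 fell when the 8 single-time differences were averaged (edgeR quasi-likelihood test, adjusted p under 0.05). Over all 10097 genes tested, 8.26% rose and 6.21% fell by the same test, and the median log2 difference was -0.01. All 4 quiescence markers rose, with a median log2 difference of 0.82. Of the 3 activation markers, Vim and Tagln rose, and the median of the 3 was also 0.82. Of the 3 mural markers Pdgfrb rose, and their median was 0.42. Whether the 3 roles differed was not tested. In whole liver, more cells of a type and more RNA per cell cannot be told apart.

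Gdf10, a secreted factor of the bone morphogenetic protein family found in quiescent stellate cells, rose the most (ENSMUSG00000021943, chr14:33923587-33937983 in GRCm38). Its level in the 32 sh-Ctl libraries ran from 2.76 to 9.35 CPM with a median of 4.90. In the 32 sh-Acsf3 libraries it ran from 4.91 to 15.2 CPM with a median of 10.6. All 32 sh-Acsf3 libraries lay above the sh-Ctl median of their own time, and at 7 of 8 times all 4 sh-Acsf3 libraries lay above all 4 sh-Ctl libraries. Of all tested genes, 0.773% showed such a separation at 4 or more times and 15% at 1 or more. At ZT0 to ZT21 in turn, 3.21%, 2.7%, 2.07%, 3.02%, 3.86%, 2%, 2% and 3.5% of all genes separated in this way. The averaged log2 difference was 1.07 ± 0.09 (SE), a 2.10-fold difference with a 95% interval from 1.86 to 2.37 (edgeR quasi-likelihood test, adjusted p = 8.94e-15).

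Lrat, the enzyme that esterifies retinol for storage, also rose (ENSMUSG00000028003, chr3:82892579-82903973). It ranged from 6.15 to 33.6 CPM with a median of 13.1 in sh-Ctl, and from 12.0 to 45.1 CPM with a median of 20.0 in sh-Acsf3. The groups overlapped: 27 of 32 sh-Acsf3 libraries were above the sh-Ctl median of their time, and full separation was seen at ZT9 and ZT12. Averaged over the times, Lrat was higher by 0.71 ± 0.12 on the log2 scale (edgeR, adjusted p = 1.31e-05).

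Reln, which encodes the secreted glycoprotein reelin and is expressed by stellate cells in liver, rose by a smaller amount (ENSMUSG00000042453, chr5:21884454-22344702). Its sh-Ctl libraries spanned 4.21 to 19.4 CPM (median 12.9) and its sh-Acsf3 libraries 12.2 to 29.4 CPM (median 18.5). Full separation was seen at ZT9 and ZT15, and 28 of 32 sh-Acsf3 libraries exceeded the sh-Ctl median of their time. On the log2 scale the averaged rise was 0.55 ± 0.08 (edgeR, adjusted p = 1.18e-06).

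Pdgfra, a receptor for platelet-derived growth factors found on stellate cells and fibroblasts, was the sparsest of the quiescence markers (ENSMUSG00000029231, chr5:75152292-75198215). It had a median of 4 UMIs per sh-Ctl library and 8 per sh-Acsf3 library. In sh-Ctl it ran from 0.306 to 3.81 CPM with a median of 1.44, and in sh-Acsf3 from 0 to 5.15 CPM with a median of 2.87. The ranges overlapped over most of their length, and ZT0 was the only time with full separation. Its averaged log2 difference was 0.92 ± 0.18 (edgeR, adjusted p = 0.000108).

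**Figure D1:**
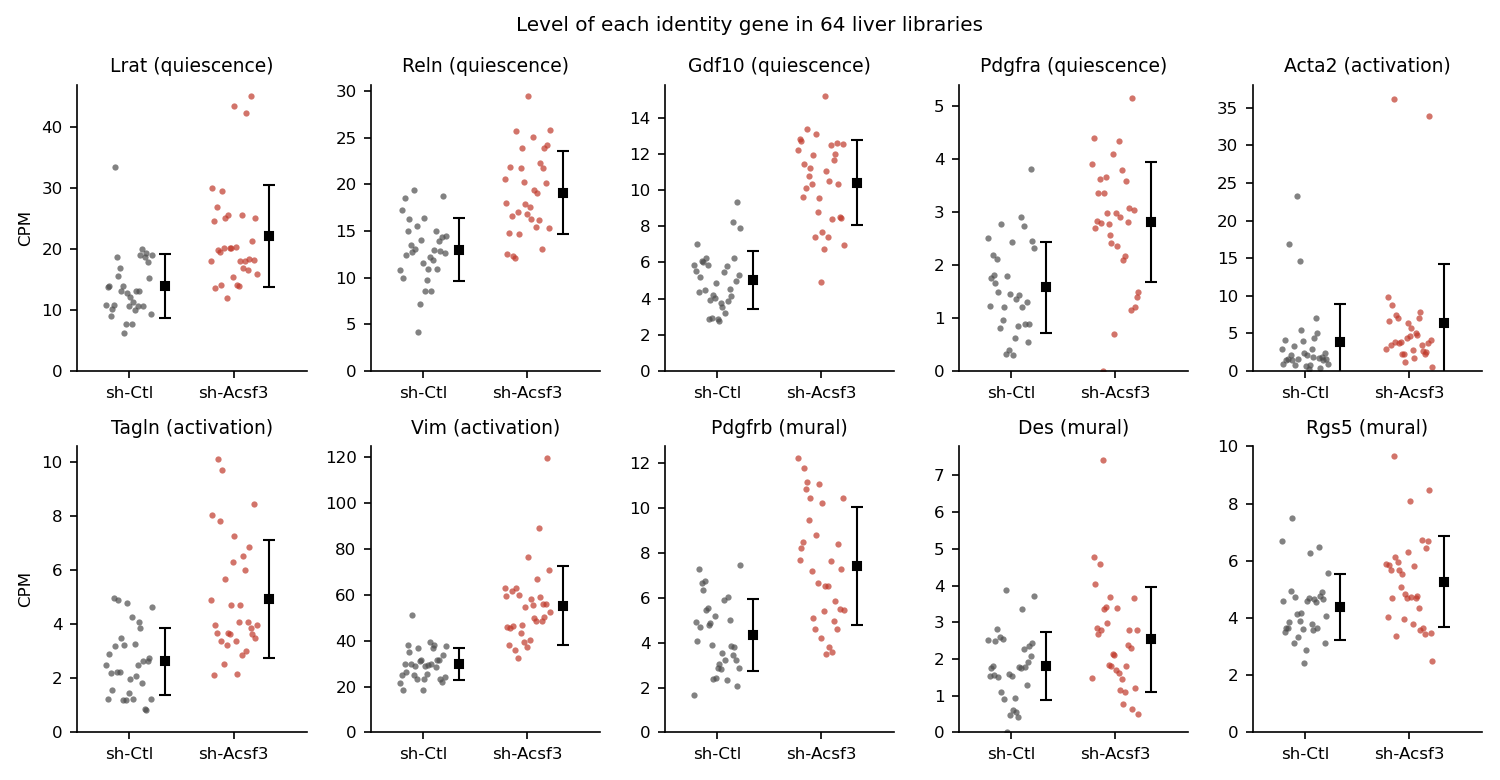
CPM of each identity gene (vertical axes, from 0) in the 32 sh-Ctl (grey) and 32 sh-Acsf3 (red) libraries, each dot 1 library ordered by time, with the mean ± SD as a square and bar beside each group (bars end at the axis at 0). Gdf10 and Vim show the clearest shift between hairpins, and Acta2 shows a few libraries far above the rest in both.

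Vim, which encodes the intermediate filament protein vimentin of mesenchymal cells and leukocytes, gave the most UMIs of the 10 (ENSMUSG00000026728, chr2:13573927-13582826). It ran from 18.4 to 51.3 CPM in sh-Ctl (median 29.5) and from 32.6 to 119.8 CPM in sh-Acsf3 (median 53.6). As for Gdf10, all 32 sh-Acsf3 libraries lay above the sh-Ctl median of their time, and the groups separated fully at 6 of 8 times. The averaged log2 difference was 0.87 ± 0.09, or 1.83-fold with a 95% interval from 1.63 to 2.05 (edgeR, adjusted p = 1.19e-11).

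Tagln, which encodes the actin-binding protein transgelin of smooth muscle and activated stellate cells, rose as well (ENSMUSG00000032085, chr9:45929619-45936058). Its sh-Ctl libraries ran from 0.817 to 4.98 CPM (median 2.50) and its sh-Acsf3 libraries from 2.14 to 10.1 CPM (median 4.02). The groups overlapped at 7 of 8 times and separated at ZT18. Averaged over the times, Tagln was higher by 0.82 ± 0.17 on the log2 scale (edgeR, adjusted p = 0.000224). Pcsk7 overlaps Tagln on the other strand, and whether counting used strand is not given in the sources used here. The difference for Pcsk7 was 0.03 ± 0.08 (edgeR, adjusted p = 0.864).

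Acta2, the alpha smooth muscle actin gene and the usual marker of activated stellate cells, did not pass the test (ENSMUSG00000035783, chr19:34241090-34255590). It ran from 0.314 to 23.3 CPM in sh-Ctl with a median of 2.01, and from 0.496 to 36.2 CPM in sh-Acsf3 with a median of 4.04. Its coefficient of variation was 133% in sh-Ctl and 124% in sh-Acsf3, at a median of 6 and 12 UMIs per library. Tagln, at a like depth of 7.5 and 11.5 UMIs, had 47.6% and 43.9%. Vim, at 84.5 and 129.5 UMIs, had 23.6% and 30.8%. The Acta2 groups separated fully at 0 of 8 times. For Acta2 the averaged log2 difference was 0.77 ± 0.32, or 1.71-fold with an unadjusted 95% interval from 1.10 to 2.64 (edgeR, adjusted p = 0.102). It passed at an adjusted p of 0.0226 without replicate 2 of sh-Ctl at ZT3 and of 0.0158 without replicate 3 of sh-Ctl at ZT6, the sh-Ctl libraries with the highest levels. DESeq2 gave an adjusted p of 0.0487, and edgeR without a filter on low counts gave 2.47e-07 at a log2 difference of 0.76. Acta2 did not pass in the other 9 of 11 settings. Nor did it pass in the 4 edgeR fits without a replicate number (adjusted p from 0.118 to 0.199). In 62 of 64 edgeR fits without 1 library it also did not pass (adjusted p up to 0.248).

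Pdgfrb, the receptor for platelet-derived growth factor on mural cells and stellate cells, was the mural marker that rose (ENSMUSG00000024620). It ran from 1.67 to 7.44 CPM in sh-Ctl (median 3.98) and from 3.496 to 12.2 CPM in sh-Acsf3 (median 7.23). The groups separated fully at ZT0 and ZT3, and 28 of 32 sh-Acsf3 libraries exceeded the sh-Ctl median of their time. Averaged over the times, Pdgfrb was higher by 0.78 ± 0.12 on the log2 scale (edgeR, adjusted p = 4.7e-07).

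Des, which encodes the muscle intermediate filament protein desmin found in rodent stellate cells, overlapped between hairpins at every time (ENSMUSG00000026208, chr1:75360329-75368579). It ran from 0 to 3.88 CPM in sh-Ctl (median 1.76) and from 0.496 to 7.43 CPM in sh-Acsf3 (median 2.34), with a median of 5.5 UMIs per library in each. The averaged log2 difference was 0.42 ± 0.18 (edgeR, adjusted p = 0.0968), and at this depth it did not pass. Without the 4 libraries high in Saa1 it was 0.54 with an adjusted p of 0.038, and without replicate 1 of sh-Ctl at ZT9 it was 0.56 with an adjusted p of 0.0219. Des did not pass in the other 9 of 10 settings, nor in 63 of 64 edgeR fits without 1 library (adjusted p up to 0.207). In the 3 edgeR fits without a replicate number that tested it, the adjusted p ran from 0.0655 to 0.286.

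Rgs5, a regulator of G protein signalling typical of pericytes, had the smallest difference of the 10 (ENSMUSG00000026678, chr1:169655501-169695813). Its sh-Ctl libraries ran from 2.42 to 7.50 CPM (median 4.17) and its sh-Acsf3 libraries from 2.48 to 9.65 CPM (median 4.96). The ranges overlapped over nearly their whole length, with full separation at ZT6 only. The averaged log2 difference was 0.28 ± 0.10, or 1.22-fold with an unadjusted 95% interval from 1.06 to 1.40 (edgeR, adjusted p = 0.0552). It lies close to the threshold: without 1 or another of 17 single libraries it passed, with adjusted p-values down to 0.0242. It also passed in a model with 1 difference shared by all times (adjusted p = 0.0378), without replicate number 4 (0.0376) and with library size as the only scaling (0.0264). Rgs5 did not pass in the other 8 of 10 settings or in 47 of 64 fits without 1 library. In 3 of 4 edgeR fits without a replicate number it also did not pass, with adjusted p-values up to 0.407.

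**Figure D2:**
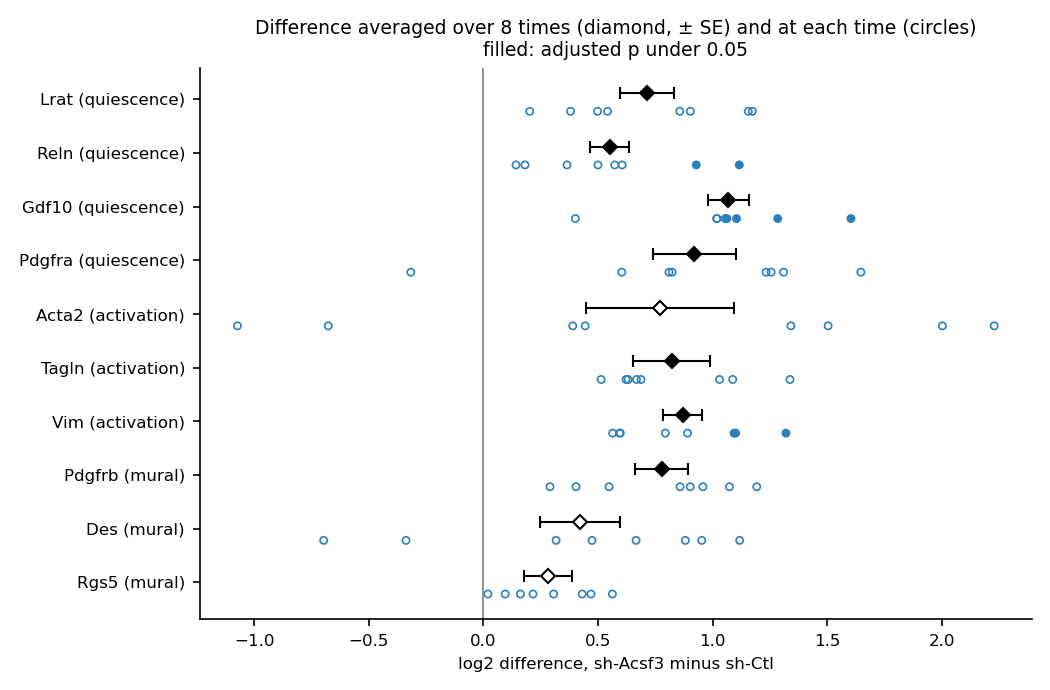
Log2 difference between sh-Acsf3 and sh-Ctl (horizontal axis) for each gene, averaged over 8 times (diamonds, ± SE) and at each time (circles), filled where the adjusted p was under 0.05. All 10 averaged differences lie above 0, from 0.28 for Rgs5 to 1.07 for Gdf10, and 3 genes (Pdgfra, Acta2 and Des) have circles below 0.

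At single times, 9 of the 80 tests of an identity gene passed, all for Gdf10, Vim or Reln and all higher in sh-Acsf3. Over all tested genes, 1.48% were called higher at 1 or more single times and 0.357% lower. Gdf10 was called at ZT0, ZT6, ZT9 and ZT12, where 0.465%, 0.188%, 0.307% and 1.16% of all genes were called higher. Vim was called at ZT0, ZT12 and ZT21 (0.277% of all genes at ZT21), and Reln at ZT9 and ZT12. No identity gene was called at ZT3, ZT15 or ZT18, where 0.0594%, 0.0198% and 0.139% of all genes were called higher. The difference was above 0 at all 8 times for 7 of the 10, as for 5.74% of all genes.

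For Gdf10 the gap was widest at ZT12, where the sh-Ctl libraries held 2.87, 2.76, 3.76 and 3.54 CPM and the sh-Acsf3 libraries 7.68, 6.76, 15.2 and 11.1 CPM. The highest sh-Ctl library was well under the lowest sh-Acsf3 library, and the log2 difference was 1.60 ± 0.27 (edgeR, adjusted p = 9.89e-05). This call held without any 1 of the 8 libraries of that time. At ZT21 the gap was narrowest, with 4.97, 9.35, 5.30 and 7.90 CPM in sh-Ctl against 8.53, 8.47, 12.5 and 6.95 CPM in sh-Acsf3. Here the groups overlapped, and the log2 difference was 0.40 ± 0.27 (edgeR, adjusted p = 0.629).

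For Vim the widest gap was at ZT21, with 21.9, 33.6, 24.1 and 37.7 CPM in sh-Ctl and 56.0, 119.8, 71.0 and 52.6 CPM in sh-Acsf3. Replicate 2 of sh-Acsf3 was far above its group, yet the other 3 also exceeded every sh-Ctl library. The log2 difference was 1.32 ± 0.25 (edgeR, adjusted p = 0.0034), and 1.03 with an adjusted p of 0.0748 without replicate 2 of sh-Acsf3. For Reln at ZT9, the sh-Ctl libraries held 4.21, 7.19, 14.0 and 11.6 CPM and the sh-Acsf3 libraries 23.9, 20.3, 17.9 and 16.8 CPM. These groups did not overlap, and the log2 difference was 1.12 ± 0.25 (edgeR, adjusted p = 0.0192). Without replicate 1 of sh-Ctl it was 0.82 with an adjusted p of 0.287.

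Several of these 9 calls were lost without libraries that stood apart. Without the 8 libraries with pancreas RNA, 4 did not pass (edgeR): Gdf10 at ZT6 (0.91, adjusted p = 0.122) and ZT9 (1.29, 0.0512), Reln at ZT9 (1.18, 0.0512) and Vim at ZT21 (1.04, 0.0569). Without the 4 libraries high in Saa1, 3 did not pass (edgeR): Reln at ZT9 (0.83, adjusted p = 0.258) and ZT12 (0.82, 0.0612), and Gdf10 at ZT9 (1.14, 0.0926). Without the 2 libraries under 1 M UMIs, Vim at ZT21 was 1.03 with an adjusted p of 0.0833. When each time was fitted on its own 8 libraries, 5 of the 9 did not pass: the adjusted p was 0.293 for Gdf10 at ZT6, 0.0678 for Gdf10 at ZT9, 0.105 for Reln at ZT9, 0.0878 for Reln at ZT12 and 0.0684 for Vim at ZT21. With library size as the only scaling, Gdf10 at ZT6 had an adjusted p of 0.065. Gdf10 and Vim at ZT0 and at ZT12 passed in each of these 5 fits. Of these, only Gdf10 at ZT12 also passed in all 4 edgeR fits without a replicate number (adjusted p up to 0.0152). In the same edgeR fits, Gdf10 at ZT0 was lost in all 4 (adjusted p from 0.0622 to 0.281). Vim was lost at ZT0 in 3 of them (edgeR, adjusted p up to 0.281) and at ZT12 in 2 (up to 0.176).

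Pdgfra, Acta2 and Des had a negative difference at some times, none of them called: Pdgfra at ZT21 (-0.32 ± 0.57), Acta2 at ZT6 (-0.68 ± 0.75) and ZT9 (-1.07 ± 0.82), and Des at ZT15 (-0.70 ± 0.51) and ZT21 (-0.34 ± 0.55). The direct test that the 8 differences were equal called 0 identity genes and 0 of all genes (edgeR, 0% called). At an unadjusted p under 0.05 it gave 306 of all genes and 0 of the 10, and DESeq2 and limma-voom also called 0 of the 10. With no filter on low counts 1 was called, Acta2.

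Over the day within 1 hairpin, few identity genes followed a 24 h cosine. In sh-Ctl, Gdf10 was the 1 gene of 10 called, against 19.4% of all genes. In sh-Acsf3, Pdgfrb and Des were called, 2 of 10 against 19.6% of all genes. Both shares are near or under the background.

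Gdf10 in sh-Ctl was highest at ZT21 (6.88 ± 2.11 CPM, SD, n = 4) and lowest at ZT12 (3.23 ± 0.496 CPM). Its fitted log2 amplitude was 0.41 ± 0.10 with a peak at ZT22.6 (edgeR, adjusted p = 0.00383). In sh-Acsf3 the amplitude was 0.12 ± 0.08 (edgeR, adjusted p = 0.516). The direct test of a difference in rhythm between hairpins did not pass for Gdf10 (edgeR, adjusted p = 0.999). Without replicate 2 the sh-Ctl rhythm had an adjusted p of 0.0566.

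Pdgfrb and Des peaked near the same time in sh-Acsf3, both with their highest mean at ZT3 and their lowest at ZT15. Pdgfrb went from 10.8 ± 0.98 to 5.39 ± 1.99 CPM, with a log2 amplitude of 0.38 ± 0.11 and a peak at ZT3.13 (edgeR, adjusted p = 0.0206). Des went from 4.37 ± 2.21 to 1.27 ± 0.448 CPM, with an amplitude of 0.63 ± 0.16 and a peak at ZT2.72 (edgeR, adjusted p = 0.00817). Within groups, the deviations of the 2 genes had a Pearson's r of 0.09 over 64 libraries. In sh-Ctl their amplitudes were 0.29 ± 0.12 and 0.36 ± 0.18 (adjusted p = 0.163 and 0.315). No identity gene passed the test of a difference in rhythm between hairpins, nor did any other gene, with 431 of all genes and 1 of the 10, Reln, at an unadjusted p under 0.05. Pdgfrb was no longer called in sh-Acsf3 without the libraries with pancreas RNA (adjusted p = 0.117), without replicate 1 (0.0761) or without replicate 2 (0.221). Des was no longer called without replicate 3 (0.0756).

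**Figure D3:**
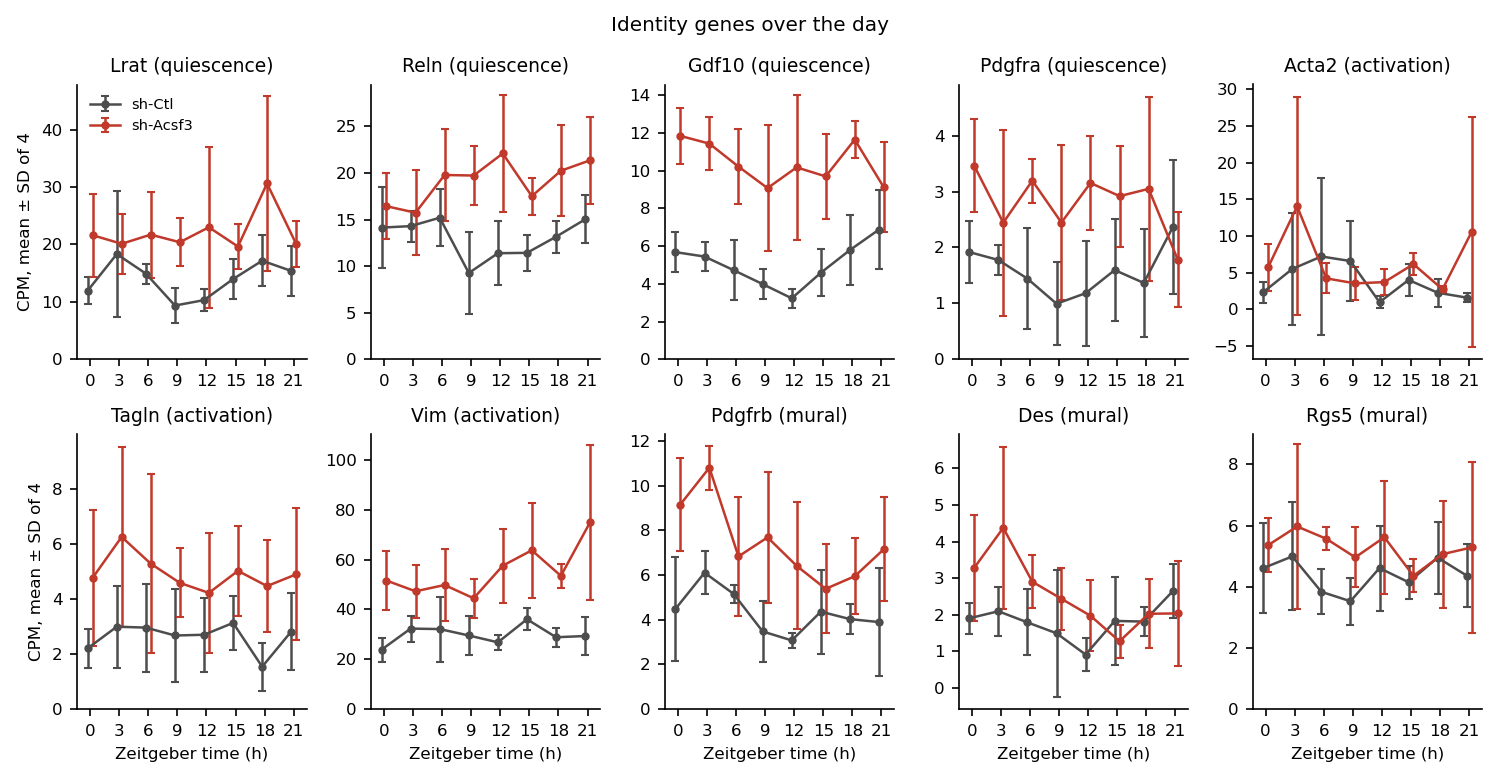
Mean ± SD of 4 libraries in CPM (vertical axes) by zeitgeber time in hours for each gene, sh-Ctl in grey and sh-Acsf3 in red. The red line lies above the grey at all 8 times for Lrat, Reln, Gdf10, Tagln, Vim, Pdgfrb and Rgs5, and the wide bars of Acta2 at ZT3, ZT6 and ZT21 come from single libraries.

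Acta2 reached more than 10 CPM in 5 libraries, a limit chosen after its values were seen. They were sh-Ctl at ZT9 (replicate 1, 14.6 CPM), at ZT3 (replicate 2, 16.9 CPM) and at ZT6 (replicate 3, 23.3 CPM), and sh-Acsf3 at ZT3 (replicate 2, 36.2 CPM) and at ZT21 (replicate 2, 33.9 CPM). In the other 59 libraries Acta2 had a median of 2.93 CPM and a highest value of 9.89 CPM. The 5 libraries thus stood apart in both hairpins.

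A sum was taken over 3 genes of contractile smooth muscle: Myh11, the smooth muscle myosin heavy chain, Cnn1, which encodes calponin, and Actg2, the gamma smooth muscle actin gene of visceral muscle. These 3 were chosen after values were seen, from a list of 20 pericyte and smooth muscle genes. Their summed level was between 6.80 and 13.3 CPM in the 5 and between 0 and 4.96 CPM in the other 59 (median 1.32). No other library reached the lowest of the 5. The contractile genes Lmod1 and Synpo2, also on the list, did not separate all of the 5. Lmod1 and Synpo2 stood at 0.277 and 0.554 CPM in sh-Ctl at ZT3 (replicate 2) and at 0.319 and 0.637 CPM in sh-Ctl at ZT6 (replicate 3), under the highest of the other 59 (0.993 and 0.763 CPM). The sum of all 20, which includes the 3, was 36.6 CPM in sh-Ctl at ZT9 (replicate 1), beside an sh-Ctl median of 36.2 CPM. In the other sh-Ctl libraries of the set it was 53.2 CPM at ZT3 (replicate 2) and 45.9 CPM at ZT6 (replicate 3). In sh-Acsf3 it was 64.2 CPM at ZT3 and 65.4 CPM at ZT21 (both replicate 2), beside an sh-Acsf3 median of 43.2 CPM. Replicate 1 of sh-Acsf3 at ZT12, with 4.69 CPM of Acta2, held 62.3 CPM. Tagln was 10.1 CPM and 8.47 CPM in the 2 sh-Acsf3 libraries of this set, against a median of 3.38 CPM in the other 59, and 3.24 to 4.98 CPM in the 3 sh-Ctl libraries. Among the 5 libraries, 3 also held RNA of exocrine pancreas genes. The part of smooth muscle or pancreas RNA in the spread of Acta2 was not tested.

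**Figure D4:**
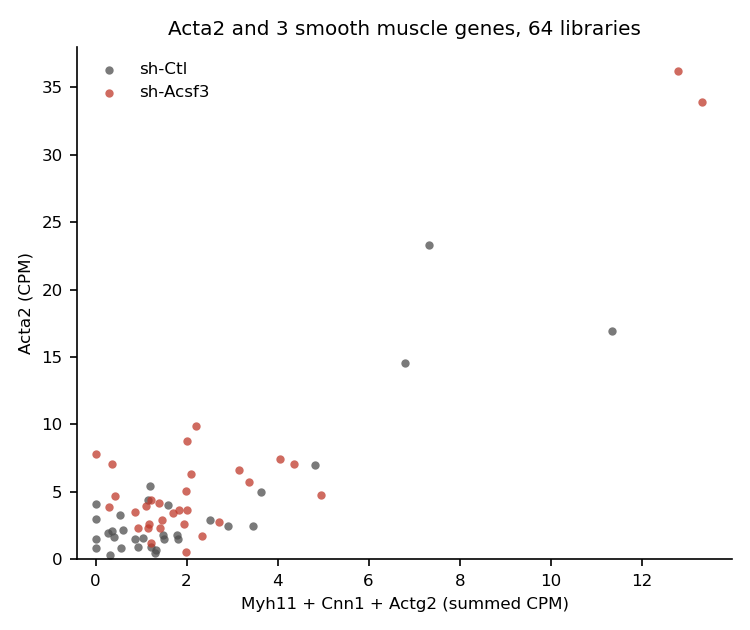
Acta2 (vertical axis, CPM) against the summed level of Myh11, Cnn1 and Actg2 (horizontal axis, CPM) in 64 libraries, sh-Ctl in grey and sh-Acsf3 in red. The 5 libraries above 10 CPM of Acta2 lie at 6.80 to 13.3 CPM of the smooth muscle genes, to the right of the other 59.

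Acta2 is known as a target of serum response factor, which binds CArG boxes (sites of 10 bases whose middle 6 are A or T). The 250 bases before the RefSeq start of each gene were searched on both strands for a CArG box with at most 1 departure in the middle 6 bases. Of 32851 promoters, 8.59% held at least 1 such match and 1.47% an exact one. Of the 10 identity genes, 8 were in the table of RefSeq promoters (GRCm38.p6), all but Tagln and Pdgfrb. Acta2 held 2 matches, Lrat 1, and the other 6 held 0. The Acta2 matches, which are shown because they stand close together before the start, lie from 84 to 75 and from 34 to 25 bases before it, each with 1 departure. They are given in capitals with 10 bases on each side (chr19:34255438-34255467 and chr19:34255388-34255417, minus strand). GENCODE starts the transcript Acta2-201 further upstream, so that there both lie in its first exon, in the 5′ untranslated region.
Acta2, farther box: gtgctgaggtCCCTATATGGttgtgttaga
Acta2, nearer box: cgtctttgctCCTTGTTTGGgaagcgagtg

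Lrat varied between livers of the same group together with genes of retinoic acid turnover. Log2 CPM values had their group means taken out, and Pearson's r was computed over the 64 libraries. The points share their library and its depth, and r is given as a description. The search covered 7774 genes whose mean reached 5 CPM, and the gene most like Lrat was Cyp26a1, the cytochrome P450 that degrades retinoic acid, with r = 0.68 and Spearman's rho = 0.58. The next gene, Sash1, had r = 0.49. Within sh-Ctl r was 0.56, within sh-Acsf3 it was 0.76, and without the 2 libraries farthest from the median of Lrat it was 0.59.

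The 4 libraries highest in Lrat were also the 4 highest in Cyp26a1. In sh-Acsf3 at ZT18, replicate 4 held 45.1 CPM of Lrat and 81.2 CPM of Cyp26a1, and replicate 1 held 42.4 and 48.7 CPM. Replicate 1 of sh-Acsf3 at ZT12 held 43.5 CPM of Lrat and 89.2 CPM of Cyp26a1, and replicate 3 of sh-Ctl at ZT3 held 33.6 and 57.3 CPM. In the other 60 libraries Lrat had a median of 16.2 CPM and reached 30.04 CPM at most, and Cyp26a1 had a median of 6.60 CPM and reached 34.6 CPM. Both hairpins thus contributed libraries to this set.

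The 12 tested genes of retinol handling and storage were set beside Lrat in the same way. Cyp26b1, the other main retinoic acid hydroxylase, which has a mean under 5 CPM and so was not in the search above, had r = 0.70 and rho = 0.73. Its r was 0.71 in sh-Ctl, 0.69 in sh-Acsf3 and 0.69 without the 2 farthest libraries. In the 4 libraries above, in the same order, Cyp26b1 stood at 7.73, 14.5, 4.69 and 27.9 CPM, against a median of 3.38 CPM and a highest value of 18.0 CPM in the other 60. All 4 were above that median, and only the last was above every other library. Rarb, a retinoic acid receptor gene that retinoic acid induces, had r = 0.40, at a level of only 1.09 ± 0.693 CPM in sh-Ctl. The other 9 lay between -0.32 and 0.28.

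Between hairpins, averaged over the times, Cyp26a1 did not pass (9.63 ± 10.7 CPM in sh-Ctl, 15.8 ± 21.1 CPM in sh-Acsf3, log2 difference 0.68 ± 0.34, adjusted p = 0.195 by edgeR). Cyp26b1 did not pass either (log2 difference -0.08 ± 0.34, edgeR, adjusted p = 0.936). Rarb rose by 0.76 ± 0.21 (edgeR, adjusted p = 0.00907).

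**Figure D5:**
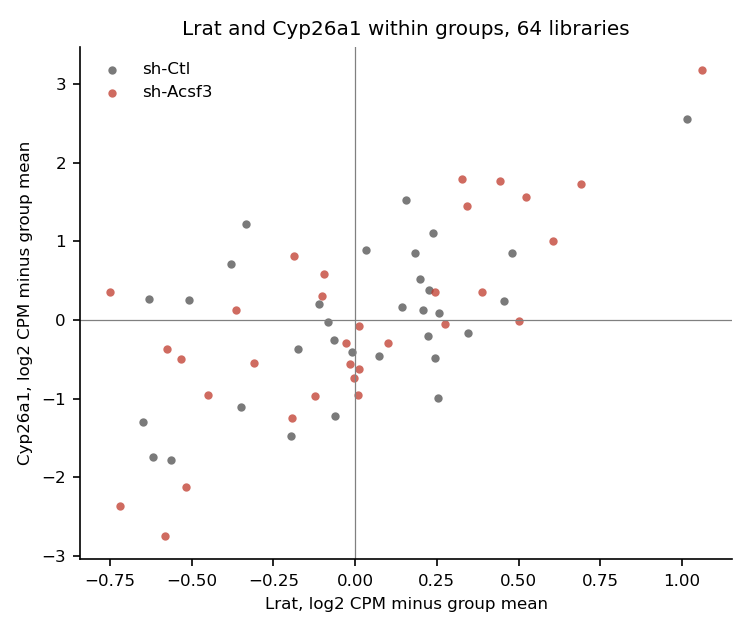
Cyp26a1 against Lrat in 64 libraries, both as log2 CPM minus the mean of the library's own group (horizontal axis Lrat, vertical axis Cyp26a1), sh-Ctl in grey and sh-Acsf3 in red. The points rise together (r = 0.68), and the libraries at the upper right come from both hairpins.

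The promoters of Lrat and Cyp26a1 are shown because these genes varied together. Retinoic acid receptors are known to bind direct repeats of a half-site spaced by 5 bases, and such a repeat was searched on both strands with the half-site AGGTCA or its variants (written AGTTCA here, and as GGGTCA or by the letters GGTTCA). Cyp26a1 held 1 match, from 32 to 16 bases before the start, and 0.0883% of all promoters held at least 1. In Lrat and the other 7 identity genes in the table no match was found in this window. The sequences come from RefSeq (GRCm38.p6): Lrat at chr3:82903975-82904224 on the minus strand, and Cyp26a1 at chr19:37697558-37697797 on the plus strand, up to its first exon in GENCODE. Capitals mark the repeat, which reads on the opposite strand.
Lrat: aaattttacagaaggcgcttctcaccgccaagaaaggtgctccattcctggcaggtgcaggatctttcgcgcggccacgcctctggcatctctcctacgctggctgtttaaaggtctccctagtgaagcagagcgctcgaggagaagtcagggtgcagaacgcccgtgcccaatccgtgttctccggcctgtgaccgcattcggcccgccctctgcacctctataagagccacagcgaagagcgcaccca
Cyp26a1: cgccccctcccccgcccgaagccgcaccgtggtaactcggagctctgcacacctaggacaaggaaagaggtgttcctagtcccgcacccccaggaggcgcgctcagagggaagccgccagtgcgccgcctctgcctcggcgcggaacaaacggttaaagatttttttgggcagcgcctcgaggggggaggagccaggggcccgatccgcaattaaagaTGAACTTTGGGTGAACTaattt

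The other identity genes differed in which genes they varied with inside groups. Reln was most like Dcn, the proteoglycan decorin (r = 0.76), and Igfbp7 (r = 0.75), both abundant in stellate cells and fibroblasts. Vim was most like the fibrillar collagen genes Col1a1 (r = 0.74), Col3a1 (0.72) and Col1a2 (0.71). Tagln was most like Col3a1 (r = 0.63) and Vim (0.62), followed by Eid1 (0.61). Gdf10 was most like Prelp (0.55), an extracellular matrix protein gene of stellate cells, followed closely by Ostf1 (0.53) and Chrac1 (0.49). Acta2 was most like Dmbt1 (r = 0.62) and then the pancreatic enzyme genes Try5 (0.58) and Ctrb1 (0.54), which were near 0 in most libraries and reached 1614 CPM for Ctrb1 in 1 sh-Acsf3 library. Dmbt1 had a median of 0 CPM in sh-Ctl and 0.298 CPM in sh-Acsf3. For Acta2 with Dmbt1, rho was 0.44, and r was 0.49 without the 2 libraries farthest from the median of Acta2. The best values for the sparser genes were 0.50 for Pdgfrb (with Pcolce), 0.57 for Pdgfra (Igbp1), 0.54 for Des (Clcn3) and 0.52 for Rgs5 (Acsf3).

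Among the 45 pairs of identity genes the highest values were 0.62 for Tagln with Vim, 0.50 for Acta2 with Tagln, 0.41 for Acta2 with Vim and 0.41 for Lrat with Reln. The quiescence markers Gdf10 and Reln had 0.06, and Lrat and Acta2 had 0.00. The 3 pairs of activation markers thus had 0.41 to 0.62 and the 6 pairs of quiescence markers 0.06 to 0.41, as a description over 64 libraries.

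Wider gene lists for the same cells were set beside the 10, where 8.26% of all tested genes rose and 6.21% fell. Of 15 tested further genes of quiescent stellate cells, 11 rose and 0 fell, with a median of 0.45. They included Cygb, the stellate cell globin gene (1.04 ± 0.11), Prelp (0.68 ± 0.07) and Colec11, a collectin gene (0.52 ± 0.07), and Colec10 did not pass (0.10 ± 0.09). Of 15 tested genes of activated stellate cells, 13 rose, with a median of 0.81. Col1a1 went from 5.70 ± 2.38 to 23.8 ± 10.4 CPM (log2 difference 2.03 ± 0.17, edgeR, adjusted p = 1.72e-13), and Sparc, a matrix-binding glycoprotein gene, rose by 0.81 ± 0.07. Both lists therefore held risen genes, as the quiescence and activation markers did.

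Genes of pericytes and smooth muscle cells were mostly too low to test, and their counts stand beside the same 8.26% higher and 6.21% lower. Of 20 listed, 5 were tested and 2 rose: Abcc9, a potassium channel subunit gene (0.64 ± 0.10), and the integrin gene Itga8 (0.69 ± 0.17). The defining pericyte genes Cspg4 and Notch3 had means of 0.02 and 0.14 CPM in sh-Ctl and of 0.07 and 0.19 CPM in sh-Acsf3. The summed level of the 20 ran from 23.0 to 53.2 CPM in sh-Ctl and from 31.6 to 65.4 CPM in sh-Acsf3. Of 8 tested portal fibroblast genes 5 rose, among them Dpt (1.43 ± 0.19) and Eln, the elastin gene (1.38 ± 0.24). Of 8 mesothelial genes 0 were high enough to test, with a summed level of 0.442 to 8.22 CPM in sh-Ctl and 0.758 to 23.0 CPM in sh-Acsf3. The 23.0 CPM belong to replicate 2 of sh-Acsf3 at ZT21, a library with under 1 M UMIs and pancreas RNA, and the next highest library held 8.32 CPM.

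Lists of related genes were read beside the 8.26% of all tested genes that rose and the 6.21% that fell. Of 12 tested genes of platelet-derived growth factor signalling 1 rose, the ligand gene Pdgfa (0.27 ± 0.07, edgeR, adjusted p = 0.00299), and Pdgfc did not pass (0.33 ± 0.12, adjusted p = 0.0597). Among 4 tested genes downstream of reelin, the kinase gene Fyn rose (0.45 ± 0.12) and the adaptor gene Crkl fell by 0.16 ± 0.06. Of 12 tested cofactors and targets of serum response factor 4 rose, among them Flna (0.73 ± 0.11) and Tpm1 (0.44 ± 0.07), and Srf itself did not pass (0.06 ± 0.15). Of 12 tested genes of retinol handling and storage 3 rose, among them Rarb and Lpl, the lipoprotein lipase gene (0.81 ± 0.11). Of 5 tested genes of other intermediate filaments and their linkers 3 rose, the epithelial keratin genes Krt8 (0.38 ± 0.07) and Krt18 (0.31 ± 0.08) and the linker gene Dst (0.19 ± 0.06).

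Genes of other liver cells were counted beside the same shares of all tested genes, 8.26% higher and 6.21% lower. All 7 tested lymphocyte genes of 15 listed rose (median 2.33), and the summed level of the 15 ran from 6.74 to 29.5 CPM in sh-Ctl and from 18.0 to 90.7 CPM in sh-Acsf3. The 18.0 CPM belong to replicate 4 of sh-Acsf3 at ZT15, and the next lowest sh-Acsf3 library held 39.2 CPM, above every sh-Ctl library. Of 12 Kupffer cell and macrophage genes 7 rose (median 0.39), summing to 173 to 622 CPM in sh-Ctl and 237 to 652 CPM in sh-Acsf3. Of 14 sinusoidal endothelial genes 1 rose, Eng (0.27 ± 0.06), and their median was 0.08. Of 10 hepatocyte genes 0 rose and 1 fell, with a median of -0.02. Both counts lie near the shares of all genes. Of 3 tested cholangiocyte genes 2 rose, Spp1 (0.68 ± 0.12) and Epcam (0.61 ± 0.17), and of 18 tested exocrine pancreas genes 0 passed. Vimentin is made by lymphocytes and macrophages too, and their part in the difference for Vim was not tested.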

How the data were processed

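The deposited table holds raw UMI counts per gene from BRB-seq of liver RNA, a bulk barcoded 3′ method. Reads were aligned with STAR to GRCm38 (mm10), per the submitters' processing notes, and versions, annotation and use of strand are not given in the sources used here. Because 1 transcript gives 1 tag at its 3′ end, CPM was not divided by gene length. Counts were filtered with filterByExpr over 16 groups (minimum count 10), scaled by TMM and fitted in edgeR 4.0.16 (R 4.3.3) with the quasi-likelihood test and Benjamini-Hochberg adjustment over all 10097 tested genes. The contrasts set sh-Acsf3 against sh-Ctl as the mean over 8 times, at each time and in their interaction, and 24 h cosines per hairpin, and 0.05 was the threshold. Likeness used log2 CPM with a prior count of 2. The code was tested on simulated data. All 10 identity genes were named in every comparison, with the 3 genes most like each one or the first of them, and up to 4 genes of smallest p per list, others being named after their values were seen. Members and lists were chosen with earlier results of these data known. Totals ran from 0.839 M to 9.35 M UMIs, so that genes near 2 CPM rest on a few UMIs per library. No replicate pair of the 96 was close to sampling noise (lowest chi-square per degree of freedom 2.54). The labels number replicates and do not say that each is a separate mouse, so p-values measure the spread between these samples. DESeq2 1.42.0 and limma-voom (limma 3.58.1), other scalings and filters, and fits without given libraries served as alternatives.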

Additional observations from a re-analysis of the deposited data

Results flagged for a closer look

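Within each group of 4 libraries, a library was singled out where its gap to the nearest other made up most of the range of the group (Dixon's 95% critical value). This was so in 10 of 160 groups, where chance alone gives about 1 in 20, or 8. Of these, 4 concern Acta2: replicate 2 of sh-Ctl at ZT3 had 16.9 CPM against at most 2.12 CPM in the other 3, and replicate 3 of sh-Ctl at ZT6 had 23.3 CPM against 0.833 to 3.27 CPM. In sh-Acsf3, replicate 2 at ZT3 had 36.2 CPM of Acta2 against 3.91 to 8.74 CPM, and replicate 2 at ZT21 had 33.9 CPM against 0.496 to 4.17 CPM. Tagln was also high in that last library, at 8.47 CPM against 3.48 to 3.97 CPM. This library had 0.839 M UMIs and held 11273 CPM of exocrine pancreas genes in sum. Its values rest on 28 UMIs of Acta2 and 7 UMIs of Tagln.

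For Lrat, replicate 2 of sh-Ctl at ZT18 was low at 10.6 CPM (18.6 to 20.02 CPM in the others), and replicate 2 of sh-Acsf3 at ZT15 was high at 25.6 CPM (16.9 to 18.1 CPM). Pdgfra was high in replicate 1 of sh-Acsf3 at ZT21, at 3.05 CPM against 1.21 to 1.49 CPM. Des was high in replicate 1 of sh-Acsf3 at ZT9, at 3.70 CPM against 1.81 to 2.13 CPM. Rgs5 was low in replicate 2 of sh-Acsf3 at ZT0, at 4.03 CPM against 5.67 to 5.87 CPM.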

How the results depend on the processing

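No result changed direction under any alternative run. The count of 7 identity genes that rose over the averaged times stayed between 5 and 8 under the 11 other settings, the 4 fits without a replicate number and the 64 without a single library. It was 5 with a minimum mean of 5 CPM, where 6 of the 10 were tested. One setting, leaving out the 2 libraries under 1 M UMIs, was chosen after seeing the data and gave 7. The 9 calls at single times became 23 with no filter on low counts, 5 without the libraries with pancreas RNA, and 2 to 6 without a replicate number. Fitting each time alone ended 5 of the 9 and library size as the only scaling ended 1, with values given beside the results. Further calls were lost without 1 library of their time: Vim at ZT0 without replicate 1, 2 or 3 of sh-Ctl or 1 or 2 of sh-Acsf3, Gdf10 at ZT0 without 2 or 4 of sh-Ctl or 2 or 3 of sh-Acsf3, and at ZT6 without 3 or 4 of sh-Ctl or 1 or 3 of sh-Acsf3. The same held for Reln and Gdf10 at ZT9 without replicate 1 of either hairpin, Reln at ZT9 without 2 of sh-Ctl, Reln at ZT12 without 2, 3 or 4 of sh-Ctl or 1 or 4 of sh-Acsf3, and Vim at ZT12 without 1 of sh-Acsf3. The 0 genes whose difference varied with time became 1 with no filter. Rhythmic genes in sh-Ctl (1) ranged from 0 to 2 without a replicate number. Those in sh-Acsf3 (2) were 1 with a minimum mean of 5 CPM, 1 without the libraries with pancreas RNA, and 0 to 2 without a replicate number. The causes were not tested. Rgs5 also passed with library size as the only scaling (adjusted p = 0.0264), which moved the median of all genes to 0.05 and the split of calls from 834 higher and 627 lower to 1125 and 247. The 17 libraries without which Rgs5 passed were, in sh-Ctl, replicate 1 at ZT0, 2 at ZT6, ZT9 and ZT18, and 4 at ZT3, ZT12 and ZT21, and in sh-Acsf3, replicate 1 at ZT3 and ZT9, 2 at ZT0, ZT12 and ZT18, 3 at ZT12, ZT18 and ZT21, and 4 at ZT3 and ZT21. Without replicate 3 the calls over all genes fell from 1461 to 787.

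Same-numbered libraries showed little likeness across hairpins: of 32 such pairs, 7 had deviations correlated above 0.1 (median 0.02). Pairs with different numbers were not compared, so this check cannot exclude a structure by replicate number, within a hairpin in particular. The sh-Acsf3 libraries of replicate 4, for example, all held between 1.44 M and 1.99 M UMIs. With the replicate number as a block, 7 identity genes rose over the averaged times, 10 calls were made at single times, and 1558 genes were called in all. The test planned for identity genes under the count filter was not run, since all 10 passed it. Genes with a median of under 10 UMIs per library, such as Des and Pdgfra, limit what this depth can show.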
